A study of Arabidopsis thaliana with 6 samples.

Results

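The DTX1 cluster is a run of MATE transporter genes on chromosome 2 of Arabidopsis thaliana. Its 6 members are AT2G04040 (DTX1), AT2G04050, AT2G04070, AT2G04080, AT2G04090 and AT2G04100, taken by gene identifier from the 30424 genes of the count tables. The cluster was singled out with the RGF1 against Mock values of these same libraries known. Its fold changes and adjusted p-values, which come from the fit over all genes, are therefore a description and support nothing further. Of the 6 members, 3 had enough counts to be tested among 16737 genes.

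The libraries came from the dissected root meristematic zone of Col-0 seedlings at 6 days, homozygous for the reporter HYP2-GFP. The reporter is shared by both groups and its fluorescence guided the cut. The seedlings were held for 1 h in liquid MS medium with water (Mock, 3 libraries) or with 100 nM RGF1 (3 libraries). RGF1 is a secreted, sulfated peptide hormone that maintains the root meristem, and the title of the series links it to meristem size through reactive oxygen species. Each RNA sample came from 20 root sections, and the labels do not say whether the 3 extractions per treatment came from separate plates or days. The p-values thus reflect only how far these samples differ from each other, part of which may be technical.

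MATE (multidrug and toxic compound extrusion) proteins are membrane carriers that move small organic molecules out of the cytosol, usually in exchange for protons. Plants hold many of them, and known substrates include alkaloids, flavonoids, citrate, salicylate and abscisic acid. DTX1, the member studied most, exported plant alkaloids, antibiotics and cadmium when it was produced in Escherichia coli. The counts come from bulk tissue, in which fewer cells of a type and less RNA per cell cannot be told apart.

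In the TAIR10.1 annotation the 6 genes lie on the minus strand of chromosome 2 between 1334270 and 1379130, a stretch of 44.9 kb. DTX1 (1334270 to 1336550) and AT2G04050 (1337180 to 1339468) are separated by 629 bases. AT2G04070 (1353755 to 1355883) and AT2G04080 (1357156 to 1359403) follow after a gap of 14286 bases that holds other genes. AT2G04090 (1362380 to 1364788) and AT2G04100 (1376694 to 1379130) close the cluster. The first 4 genes have 6 exons and encode proteins of 476 residues, while AT2G04090 and AT2G04100 have 7 exons and encode 477 and 483 residues.

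By translated coding sequence the cluster falls into 2 groups. Any pair among DTX1, AT2G04050, AT2G04070 and AT2G04080 had 81.7% to 86.3% identical residues. AT2G04090 and AT2G04100 shared 91.0% over 477 aligned columns. Across the 2 groups the 8 pairs shared only 66.8% to 70.7%, so the gene order on the chromosome follows the sequence groups.

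**Figure D1:**
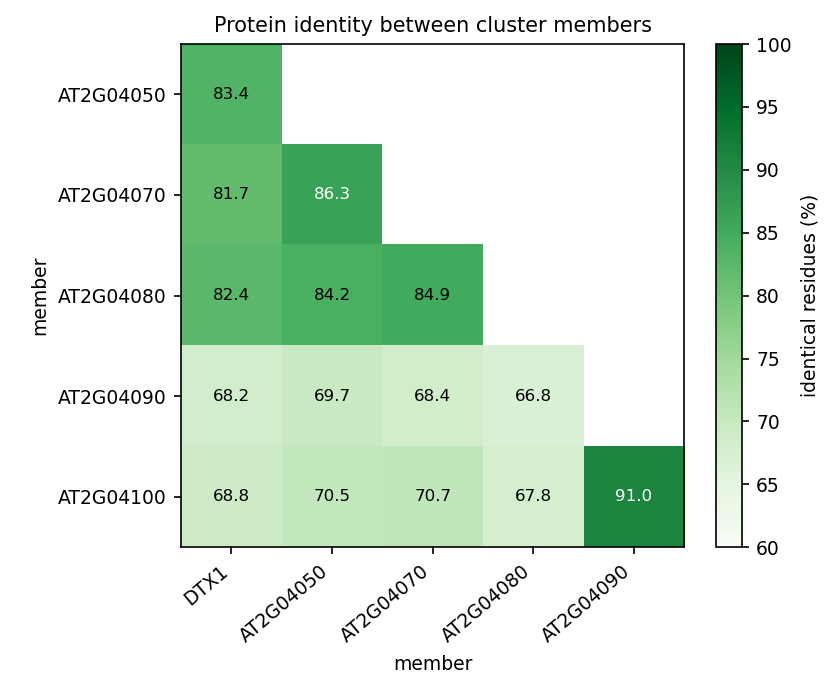
Percentage of identical residues between the translated coding sequences of each pair of cluster members, with members on both axes in chromosome order and the shade giving the percentage. DTX1, AT2G04050, AT2G04070 and AT2G04080 form a block at 81.7% to 86.3%, and the AT2G04090 and AT2G04100 pair stands apart at 91.0%.

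Close copies can lose or share reads, and how reads with several matching places were handled is not given in the sources used here. The read length is not given either, so each spliced transcript was cut into words of 50 and of 100 bases and each word was looked up in the genome and in the other members. Of the 50-base words, 93.8% were unique for DTX1, 96.5% for AT2G04050, 96.8% for AT2G04070, 82.1% for AT2G04080, 87.6% for AT2G04090 and 88.0% for AT2G04100. With 100 bases the lowest share was again that of AT2G04080, at 85.2%. AT2G04090 and AT2G04100 repeated 217 words of 50 bases in each other, so reads of this pair may have been divided between them or dropped. The words of AT2G04080 found elsewhere lay mostly in AT2G04066, a short MATE-like gene inside the cluster, which held 308 of the 321. Those of DTX1 lay mostly in AT2G14661, a transcribed pseudogene elsewhere on chromosome 2, which held 107 of the 111.

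The 250 bases before the annotated start are shown for DTX1, AT2G04050 and AT2G04100, the members whose RGF1 libraries all had higher values than their Mock libraries. They were read from the RefSeq genome sequence TAIR10.1 on the minus strand and are written 5′ to 3′ in the direction of the gene. Capitals mark the letters TGACG, the core bound by TGA factors, and TTGAC, the core of the W box bound by WRKY factors, on either strand. The cores share the letters TGAC, but no match overlapped another in these windows. The DTX1 window is chr2:1336551-1336800, that of AT2G04050 is chr2:1339469-1339718 and that of AT2G04100 is chr2:1379131-1379380.
DTX1: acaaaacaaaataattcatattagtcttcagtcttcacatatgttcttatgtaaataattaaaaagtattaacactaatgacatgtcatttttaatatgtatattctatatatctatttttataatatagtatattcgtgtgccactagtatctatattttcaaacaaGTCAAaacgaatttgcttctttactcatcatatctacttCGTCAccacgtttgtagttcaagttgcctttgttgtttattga
AT2G04050: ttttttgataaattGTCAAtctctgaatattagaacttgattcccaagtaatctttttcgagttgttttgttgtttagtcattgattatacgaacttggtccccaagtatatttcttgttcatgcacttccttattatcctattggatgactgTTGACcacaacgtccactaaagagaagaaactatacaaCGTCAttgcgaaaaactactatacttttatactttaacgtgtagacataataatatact
AT2G04100: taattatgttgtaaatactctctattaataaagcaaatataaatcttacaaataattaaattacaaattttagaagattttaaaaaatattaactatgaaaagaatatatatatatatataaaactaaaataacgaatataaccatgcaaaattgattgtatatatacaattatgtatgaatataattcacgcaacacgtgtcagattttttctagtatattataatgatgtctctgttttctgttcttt

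TGACG occurred 1 time in the window of DTX1, at 43 to 39 bases before the start, and 1 time in that of AT2G04050, at 59 to 55 bases. The window of AT2G04070, which had no counts, also held 1 TGACG, at 244 to 240 bases before its start. AT2G04050 and AT2G04070 share the 15-base run atacaaCGTCAttgc around this core, beginning 65 bases before the start of the first and 250 bases before that of the second. The shared run starts at the edge of the AT2G04070 window, where the search ended, so it may be longer. TTGAC occurred 1 time before DTX1 and 2 times each before AT2G04050 and AT2G04070. Neither core was found before AT2G04080, AT2G04090 or AT2G04100. For comparison, 18.6% of 27443 windows of protein-coding genes held TGACG and 44.9% held TTGAC. A match is only a run of letters and does not show that a factor binds there.

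DTX1 was nearly silent in the mock-treated meristem and had the largest fold of the 3 tested members after RGF1, whereas AT2G04100 had the larger difference in mean CPM. The Mock libraries, in replicate order, held 20, 1 and 13 counts of it, and the RGF1 libraries 173, 61 and 192. Some of these may be reads from the overlap with the opposite-strand gene AT2G04039, described below, and their part was not tested. In CPM (read counts relative to library size, TMM-scaled) these were 2.14, 0.112 and 2.04 in Mock and 18.0, 8.95 and 36.2 after RGF1. All RGF1 libraries lay above all Mock libraries, so the groups did not overlap. The replicates labelled 2 were the lowest of both groups. The means were 1.43 ± 1.14 CPM in Mock and 21.0 ± 13.9 CPM after RGF1 (SD, n = 3). The fitted log2 fold change of RGF1 over Mock (log2FC) was 3.88 ± 0.83 (SE), a 14.7-fold difference, and its edgeR adjusted p over all tested genes was 0.0695. Fold changes at least this large upward were fitted for 50 of the 16737 genes, or 0.299%. With replicate number as a block the log2FC of DTX1 was 4.07 ± 0.64 (SE) and edgeR adjusted p = 0.00553. Without RGF1 replicate 3, the library with the highest value, the fold without the block was 9.38.

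AT2G04100, at the other end of the cluster, was the most abundant member in all libraries but RGF1 replicate 3, where DTX1 exceeded it. Its counts were 194, 107 and 91 in the Mock libraries and 684, 225 and 179 in the RGF1 libraries. The corresponding levels were 20.8, 12.0 and 14.3 CPM in Mock and 71.3, 33.0 and 33.7 CPM after RGF1. All RGF1 libraries lay above all Mock libraries, and replicate 1 was the highest of each group. Its mean went from 15.7 ± 4.57 to 46.0 ± 21.9 CPM (SD, n = 3), and the log2FC was 1.55 ± 0.40 (SE), a 2.94-fold difference, with edgeR adjusted p = 0.164. With the replicate block it was 1.50 ± 0.31 (SE) with edgeR adjusted p = 0.0262. The fold was 2.13 without RGF1 replicate 1, the lowest of the values with 1 library left out.

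AT2G04090, the closest copy of AT2G04100, showed no such separation. It had 26, 62 and 10 counts in the Mock libraries and 84, 70 and 17 in the RGF1 libraries, or 2.79, 6.94 and 1.57 CPM against 8.75, 10.3 and 3.20 CPM. RGF1 replicate 3 lay below Mock replicate 2, so the groups overlapped. In both groups replicate 2 was highest and replicate 3 lowest. The log2FC was 0.97 ± 0.76 (SE) with edgeR adjusted p = 0.847, and 1.07 ± 0.69 (SE) with edgeR adjusted p = 0.576 with the block. The fold was 1.96, and without Mock replicate 2 it was 3.39. Within same-numbered libraries the ratio of RGF1 to Mock was 3.14, 1.48 and 2.04 for AT2G04090 and 3.43, 2.76 and 2.36 for AT2G04100. For DTX1 it was 8.41, 80 and 17.7, the second resting on 1 count in Mock replicate 2.

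AT2G04050, the cluster member nearest to DTX1, had 1, 1 and 0 counts in the Mock libraries and 5, 1 and 6 in the RGF1 libraries. Summed, these were 2 and 12 counts, a depth-scaled ratio of 6.81, for which the exact 95% interval ran from 1.52 to 62.6 and covers counting error only. The highest Mock and the lowest RGF1 library each held 1 count, so the order of the groups rests on scaling alone there. Like DTX1, AT2G04050 had its lowest RGF1 value in replicate 2 and its highest in replicate 3. It was below the expression filter, and without that filter its edgeR adjusted p was 0.806.

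AT2G04070 and AT2G04080, which lie between the others, had 0 counts in the 6 libraries. A count of 0 allows up to 3 counts per library, which is 0.313 to 0.565 CPM depending on the library. In AT2G04070 all words of 100 bases and 96.8% of those of 50 bases are found nowhere else, whereas AT2G04080 shares more of its sequence with AT2G04066. At this depth the transcripts of both genes were not detectable with or without RGF1.

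**Figure D2:**
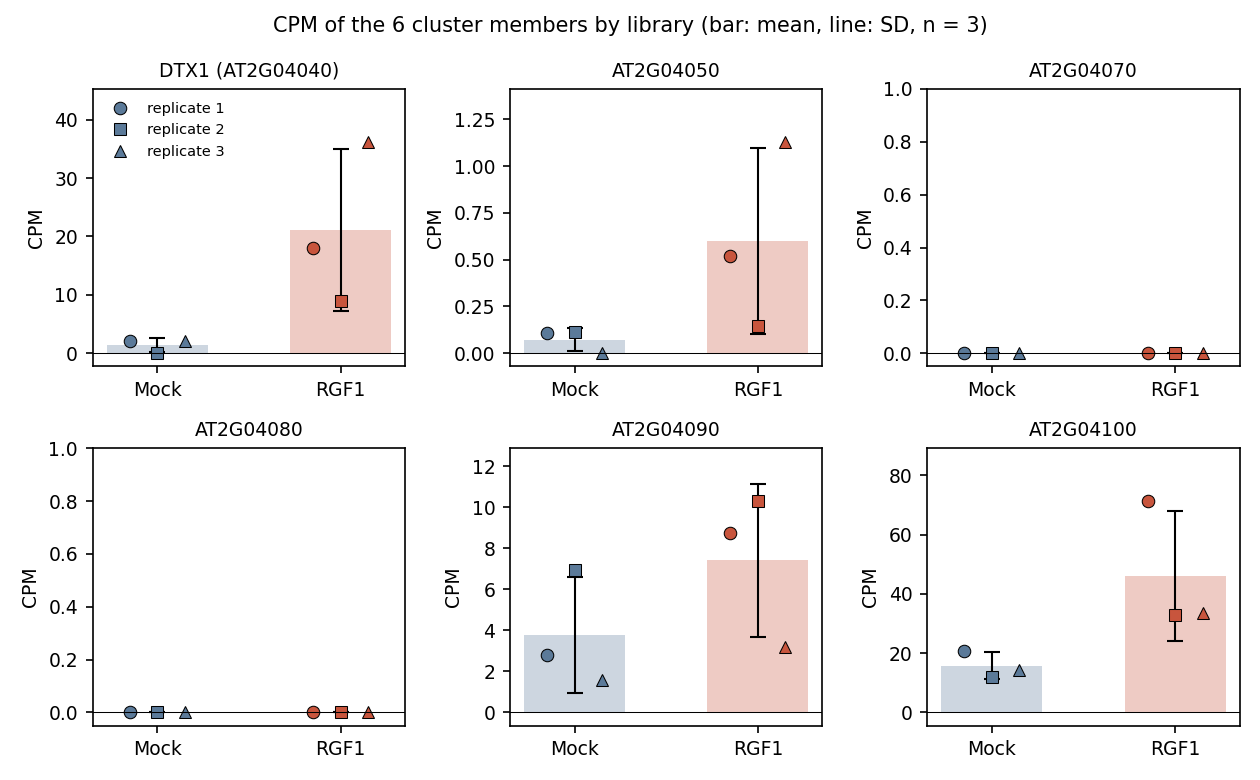
CPM of each cluster member on the vertical axis for the Mock and RGF1 groups, with 1 symbol per library, the symbol shape giving the replicate number, bars the mean and lines the SD (n = 3). The RGF1 libraries of DTX1 (8.95 to 36.2 CPM) and AT2G04100 (33.0 to 71.3 CPM) lie above their Mock libraries, those of AT2G04090 overlap, and AT2G04070 and AT2G04080 stay at 0.

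Counted together, 0 of the 3 tested members were called higher at an edgeR adjusted p below 0.05, where 0.466% of all tested genes were, and 0 were called lower, against 0.0299%. At an unadjusted edgeR p below 0.05, DTX1 and AT2G04100 were higher, where 4.26% of tested genes were. The same 2 members were called higher, and 0 lower, with the replicate block, with DESeq2 and without the low-count filter. The block fit called 1.24% of tested genes higher and 0.562% lower. DESeq2 called 234 higher (1.23%) and 81 lower of the 18999 genes it adjusted. Without the filter 176 were called higher and 46 lower among the genes with any count, and 8412 of 30424 genes had none. Limma voom called 0 members, where it called 65 of 16737 genes higher. With a pair of same-numbered libraries left out of the block fit, 1 member, DTX1, was called without pair 1, 2 without pair 2 and 0 without pair 3. How many of all genes these fits called was not counted, so nothing is read from these calls. The log2FC of DTX1 was then 4.72 ± 0.74, 3.58 ± 0.62 and 4.14 ± 1.06 (SE). That of AT2G04100 was 1.35 ± 0.41, 1.51 ± 0.38 and 1.62 ± 0.41 (SE), so its call was lost without pair 1 or pair 3 at a fold close to that with all libraries and with a larger SE. RGF1 libraries lay wholly above Mock libraries in DTX1 and AT2G04100 of the 3 tested members and in 7.30% of all tested genes. Since the members were chosen on this contrast, nothing is read from these shares.

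Levels can be set beside each other between genes only per length, here as CPM per kb of exon. In Mock AT2G04100 led with 8.13 ± 2.37 CPM per kb, followed by AT2G04090 with 2.09 ± 1.56, DTX1 with 0.776 ± 0.620 and AT2G04050 with 0.0398 ± 0.0345 (SD, n = 3 each). The lowest Mock library of AT2G04100 (6.21 CPM per kb) lay above the highest of AT2G04090 (3.84), whereas AT2G04090 and DTX1 overlapped, with DTX1 at 0.0607 to 1.16. After RGF1 the order was AT2G04100 with 23.8 ± 11.3 CPM per kb, DTX1 with 11.4 ± 7.51, AT2G04090 with 4.11 ± 2.06 and AT2G04050 with 0.327 ± 0.270 (SD, n = 3 each). AT2G04100 and DTX1 now overlapped, as did DTX1 and AT2G04090, and AT2G04050 lay below these 3 genes in all RGF1 libraries. AT2G04070 and AT2G04080 were at 0 in both groups.

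**Figure D3:**
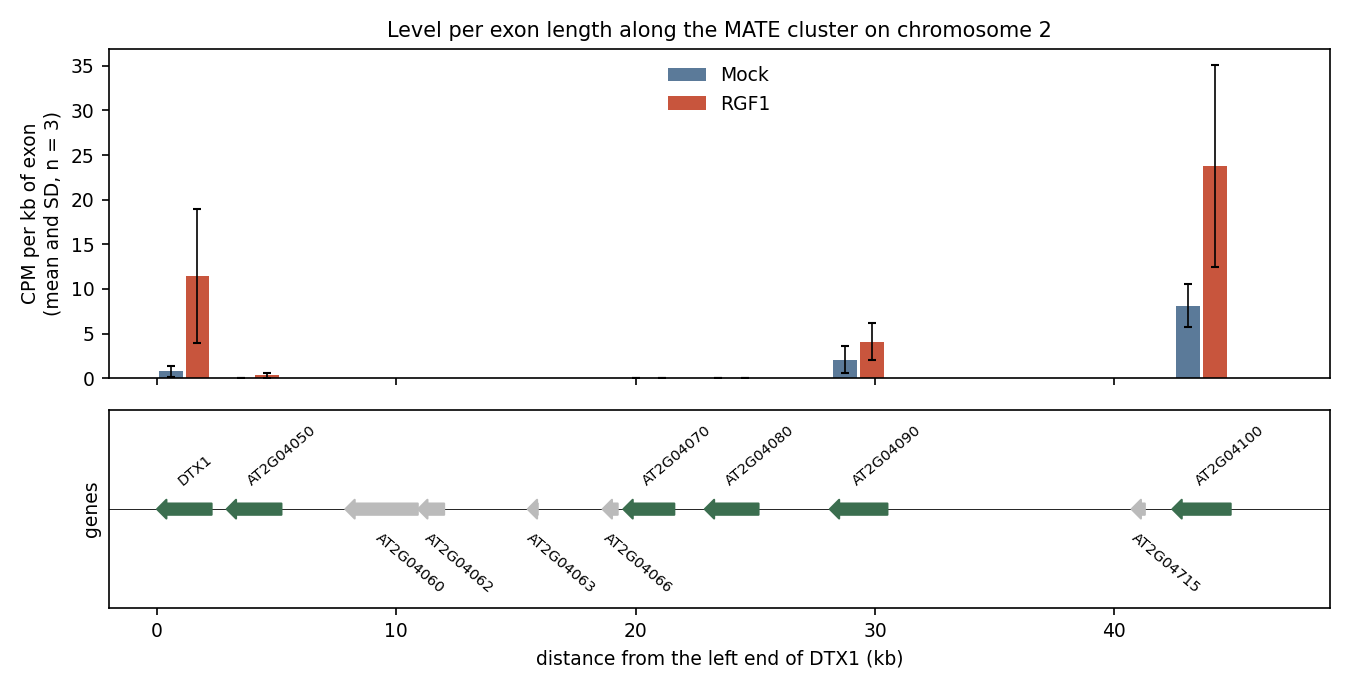
Upper panel: mean level in CPM per kb of exon, with SD as lines (n = 3), of each member at its place in the cluster for Mock and RGF1. Lower panel: the genes as arrows in the direction of transcription, members in green and other genes in grey, by distance in kb from the left end of DTX1. The ends of the cluster carry the signal, with DTX1 at 11.4 and AT2G04100 at 23.8 CPM per kb after RGF1, and the middle members AT2G04070 and AT2G04080 are at 0.

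The division of the cluster's counts among its members differed between libraries. AT2G04100 held 74.3% ± 10.2 of the counts in Mock and 60.3% ± 13.6 after RGF1 (SD, n = 3). DTX1 held 6.76% ± 5.57 in Mock and 28.0% ± 17.9 after RGF1. RGF1 replicate 3 stood apart, with DTX1 at 48.7% of 394 counts (Wilson 95% interval 43.8 to 53.7), against 18.3% (16.0 to 20.9) and 17.1% (13.5 to 21.3) in RGF1 replicates 1 and 2. The highest Mock share of DTX1 was 11.4% (6.79 to 18.5), in Mock replicate 3. Summed over the 6 members, the cluster had 25.8, 19.1 and 17.9 CPM in Mock and 98.6, 52.4 and 74.2 CPM after RGF1. The sum does not depend on how reads were divided among the 6 members. Reads that were dropped, or shared with genes outside the members, could still affect it. The log2FC of the sum was 1.84 ± 0.32 (SE), given without a test because it is a score over chosen members.

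**Figure D4:**
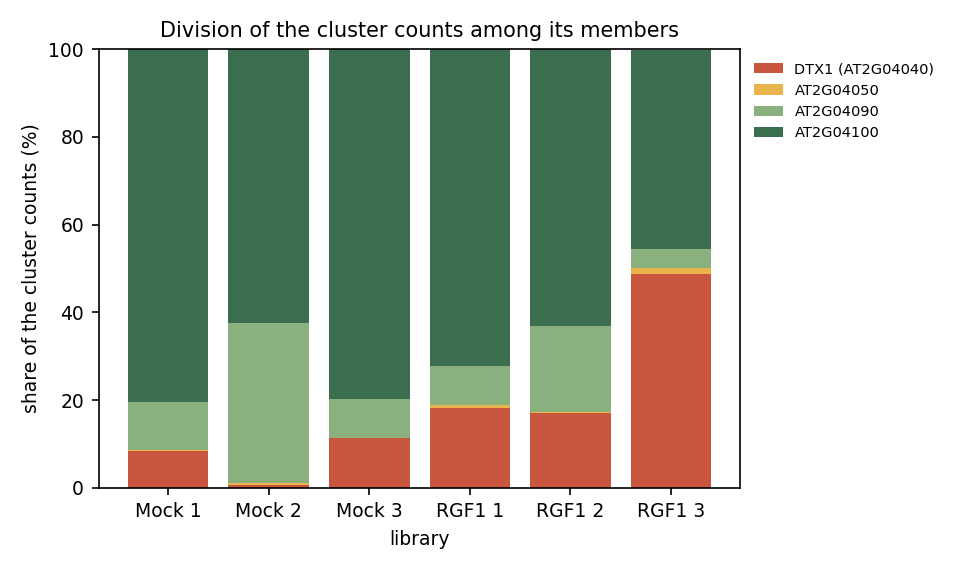
Share of the cluster's summed counts held by each member, in percent on the vertical axis, for each of the 6 libraries. AT2G04100 takes most of each bar except in RGF1 replicate 3, where DTX1 takes 48.7%, and DTX1 takes 0.585% in Mock replicate 2.

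The other genes in and around the cluster were mostly silent. The glycosyl hydrolase gene AT2G04060, AT2G04062, AT2G04063 and AT2G04066 lie between AT2G04050 and AT2G04070 and had 0 counts in the 6 libraries. The non-coding RNA gene AT2G04715, between AT2G04090 and AT2G04100, had 8 counts in RGF1 replicate 1 and 0 in the others. On the right side AT2G04115 had 0 counts, and the subtilisin-like protease gene AIR3 and the TRAF-like gene AT2G04170 had log2FC values of 0.34 ± 0.31 and 0.13 ± 0.33 (SE), and their edgeR adjusted p-values were 0.880 and 0.971. On the left side bZIP48 and AT2G04137 had 0 counts. AT2G04039, next to DTX1 on the opposite strand, shares 283 exonic bases with it, or 15.3% of the exonic length of DTX1. Use of strand in counting is not given in the sources used here, so reads from this overlap may not have been told apart. AT2G04039 had 14, 0 and 12 counts in the Mock libraries and 2, 1 and 0 in the RGF1 libraries, so its summed counts were lower after RGF1, with overlapping groups. DTX1 had 20, 1 and 13 counts in the Mock libraries, so both genes were lowest in Mock replicate 2.

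Besides the members the annotation names 50 other MATE genes, among them AT2G04066 inside the cluster, and 22 of the 50 were tested. In this list 0 were called higher or lower with edgeR, where 0.466% and 0.0299% of all tested genes were. At an unadjusted edgeR p below 0.05, 3 were higher and 0 lower. Of all tested genes 4.26% were higher at that p and 585 of 16737 were lower. DESeq2 called 3 higher (1.23% of all genes it adjusted), the block fit 1 (1.24% of all tested genes) and limma voom 0 (65 of all 16737 tested genes). The median log2FC of the 22 was 0.31, against -0.01 over all tested genes, and 16 of the 22 were positive, against 8168 of the 16737. AT1G47530, named DTX33, which encodes a vacuolar membrane chloride channel, had 21.8, 63.0 and 30.4 CPM in Mock and 90.5, 204.2 and 111.7 CPM after RGF1. Its groups did not overlap, and it had a log2FC of 1.82 ± 0.41 (SE) with edgeR adjusted p = 0.0896, or 0.000469 with the block. AT5G52450 and AT1G33110 had log2FC values of 1.35 ± 0.36 and 1.78 ± 0.51 (SE), and their edgeR adjusted p-values were 0.186 and 0.230. DTX35, a flavonoid and chloride transporter, had 1.81 ± 0.84 (SE) and overlapping groups, with 43.3 CPM in RGF1 replicate 2 and 2.19 in RGF1 replicate 1. AT1G66760 had 0.89 ± 0.43 (SE).

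Among 12 MATE genes with a described role, 6 were tested and 0 were called with edgeR, where 0.466% of all tested genes were called higher and 0.0299% lower. DESeq2 and the block fit each called 1, AT1G47530, where 1.23% of the genes DESeq2 adjusted and 1.24% of tested genes in the block fit were called higher. Limma voom called 0, where it called 65 of 16737 genes higher. Higher at an unadjusted edgeR p below 0.05 was 1, where 4.26% of tested genes were. EDS5, which exports salicylate from the chloroplast, its homologue AT2G21340 and ALF5, which protects roots from toxic compounds, had log2FC values of -0.22 ± 0.52, 0.29 ± 0.40 and 0.06 ± 0.39 (SE). FRD3, which loads citrate into the xylem, and TT12, a vacuolar carrier of flavonoid precursors, had at most 6 counts in any library. AT1G51340, AT5G52050 and AT4G22790 had at most 8. AT1G58340 (BCD1), also below the expression filter, had 12, 9 and 16 counts in the Mock libraries and 0, 2 and 1 in the RGF1 libraries. Its RGF1 libraries all lay below its Mock libraries in CPM, and its DESeq2 adjusted p was 0.524. By protein sequence the nearest gene outside the members was AT2G04066, with 78.7% identity to AT2G04080 over 178 columns, and the nearest outside the cluster was AT1G66780, with 50.7% identity to AT2G04100. AT1G66780 had 10, 0 and 0 counts in the Mock libraries and 9, 0 and 0 in the RGF1 libraries, all of them in replicate 1 of each group.

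**Figure D5:**
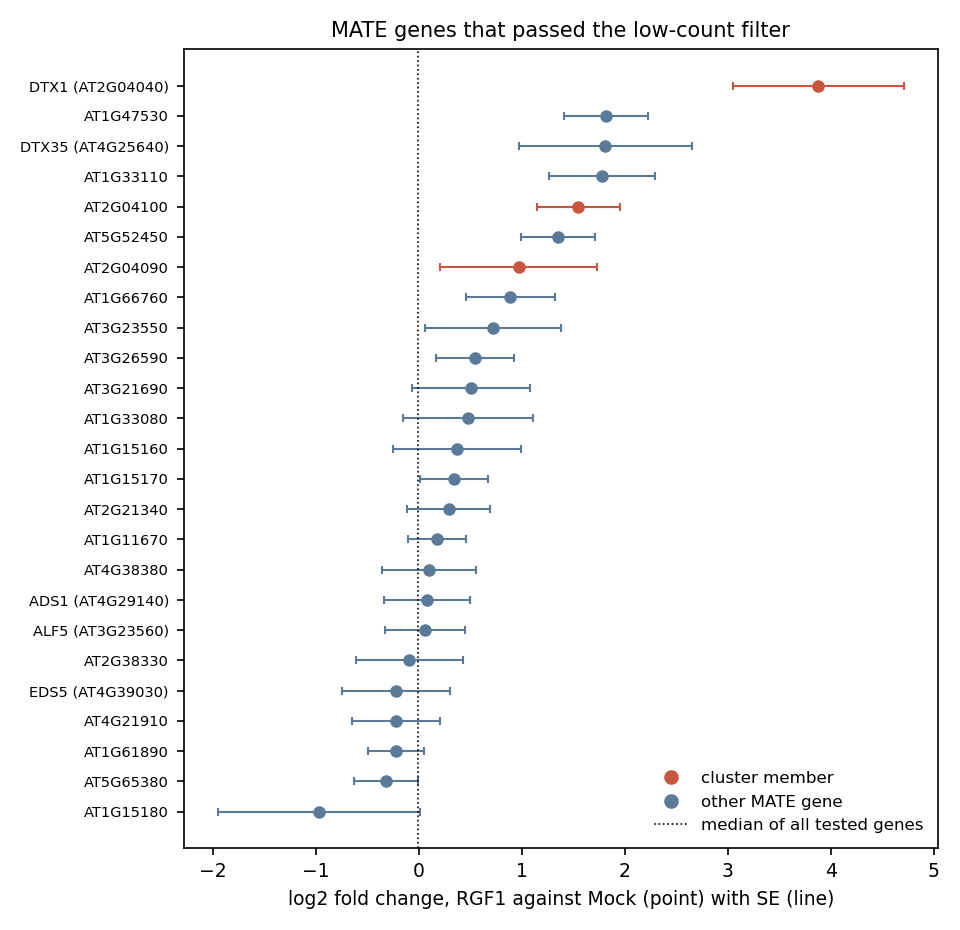
Log2 fold change of RGF1 against Mock on the horizontal axis, with SE as lines, for the 25 MATE genes that passed the low-count filter, cluster members in red and other MATE genes in blue. DTX1 is highest at 3.88, AT2G04100 at 1.55 and AT2G04090 at 0.97 lie among the upper other genes, and the dotted line at -0.01 is the median of all tested genes.

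Genes that act beside such transporters in the handling of foreign and reactive compounds were listed with earlier results known. Of 14 genes of the xenobiotic and electrophile response, 12 were tested, and edgeR called 2 higher and 0 lower, against 0.466% and 0.0299% of all tested genes. The block fit called 4 higher (1.24% of all tested genes), DESeq2 4 (1.23% of all genes it adjusted) and limma voom 2 (65 of 16737 tested genes). The list had a median log2FC of 1.30, with 10 positive values, against -0.01 and 8168 of 16737 over all tested genes. The 2 that rose were the glucosyltransferase gene UGT73B5, from 16.1 ± 5.83 to 86.2 ± 11.4 CPM (SD, n = 3; edgeR adjusted p = 0.00389), and the glutathione S-transferase gene GSTU24, from 14.1 ± 4.28 to 61.2 ± 13.0 CPM (SD, n = 3; edgeR adjusted p = 0.0128). AT4G01870 and GSTU25 had log2FC values of 1.89 ± 0.42 and 1.54 ± 0.50 (SE), and their edgeR adjusted p-values were 0.0791 and 0.356, and 0.00868 and 0.00343 with the block. DESeq2 called AT4G01870 but not GSTU25 (DESeq2 adjusted p = 0.00144 and 0.0756). It called GSTU4 instead (DESeq2 adjusted p = 0.0472), which edgeR did not test. GSTU4 had 0 counts in the Mock libraries and 5, 10 and 24 in the RGF1 libraries. The cytochrome P450 gene CYP81D11 had lower values after RGF1, with a log2FC of -1.02 ± 0.40 (SE) and edgeR adjusted p = 0.517.

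Of 8 ABC transporters of foreign and defence compounds, all were tested and 1 rose, where 0.466% of all tested genes were called higher. The block fit, DESeq2 and limma voom also called 1 each, against 1.24% of tested genes, 1.23% of the genes DESeq2 adjusted and 65 of 16737. PEN3 (ABCG36), an exporter of defence metabolites at the plasma membrane, had 382.4, 181.4 and 64.6 CPM in Mock and 2134.9, 2247.7 and 1981.8 CPM after RGF1. Its log2FC was 3.34 ± 0.49 (SE) with edgeR adjusted p = 0.00701. ABCC4, ABCG40 and ABCG37 had log2FC values of 0.62 ± 0.28, -1.14 ± 0.63 and -0.42 ± 0.26 (SE), none of them called, and the median of the 8 was -0.05. The TGA factor genes TGA2, TGA5 and TGA6 and the co-regulator gene SCL14, which act in the xenobiotic response, had log2FC values of -0.73 ± 0.43, -0.49 ± 0.48, 0.79 ± 0.73 and 0.04 ± 0.31 (SE). With edgeR 0 of these 4 were called and 0 had an unadjusted p below 0.05. Of all tested genes 4.26% were higher at that p and 585 of 16737 were lower. The block fit, DESeq2 and limma voom also called 0, against the same shares over all genes as for the ABC list.

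The genes whose log2 CPM followed the cluster sum most closely over the 6 libraries, among 14119 candidates with a mean of at least 5 CPM, were UVR8, RRS1, NodGS, AT2G36670 and BZIP25. Their Pearson correlations were 0.995, 0.988, 0.985, 0.984 and 0.984. These values describe 6 libraries that share the RGF1 contrast, and 248 of the candidates exceeded 0.9. UVR8, the UV-B photoreceptor gene, had 32.4, 25.9 and 25.2 CPM in Mock and 56.8, 44.2 and 49.7 CPM after RGF1, in the same order of libraries within each group as the sum. NodGS, which encodes a nodulin and glutamine synthetase-like protein, was the only one of the 5 called, with a log2FC of 1.79 ± 0.25 (SE) and edgeR adjusted p = 0.00487. Among the members themselves the correlation was 0.84 between DTX1 and AT2G04100, 0.49 between AT2G04090 and AT2G04100 and 0.12 between DTX1 and AT2G04090.

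The total counts ranged from 5421243 to 9495012 per library. All 8 meristem markers, among them PLT1, PLT2, AIL6 and the B-type cyclin genes, had counts. Their summed level was 296.2 to 332.4 CPM in Mock and 419.5 to 547.0 CPM after RGF1, without overlap. Most of this difference in the sum was AIL6 alone, at 125.6 ± 9.00 CPM in Mock and 271.4 ± 18.9 CPM after RGF1 (SD, n = 3; edgeR adjusted p = 0.0533). The other meristem markers went both ways, with log2FC values of -0.35 for PLT1, -0.74 for CYCB1;1, -0.39 for CYC1BAT, 0.04 for BBM, 0.22 for CDKB2;1, 0.42 for SYP111 and 1.23 for PLT2. The 4 green tissue markers also had counts, at 148.5 to 757.9 CPM in Mock and 21.3 to 316.6 CPM after RGF1, and were lowest in replicate 2 of each group, as DTX1 was. The 3 xylem markers summed to 9.54 to 11.6 CPM in Mock and 1.70 to 5.14 CPM after RGF1. Root hair markers (4 genes, 8.62 to 39.0 against 8.48 to 28.6 CPM), endodermal CASP1 and CASP2 (0 to 15.5 against 1.77 to 9.04 CPM) and root cap markers (3 genes, 3.92 to 19.1 against 2.40 to 18.3 CPM) overlapped between the groups. Of these 24 markers, CASP2 and the xylem marker VND7 were below the expression filter and not tested. None of the others was called with edgeR, where 0.466% of all tested genes were called higher and 0.0299% lower. The part of these differences in the values of the cluster was not tested.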

How the data were processed

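Read counts per gene were deposited by the authors, 1 table per library, as whole numbers that were not normalised. TopHat2 2.1.1, HTSeq, DESeq2 and TAIR10 stand in the submitters' processing notes, which state no roles or settings. Each sample's 50 ng of RNA was amplified before library construction, per the labels' protocols, and without molecular identifiers the intervals and floors of 3 counts cover counting error only. Gene models and sequences were read from RefSeq's TAIR10.1, which matched 30214 of 30424 identifiers.

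Differences of RGF1 from Mock were fitted with edgeR 4.0.16 under R 4.3.3: TMM scaling, default expression filter, quasi-likelihood F test over the 6 libraries, two-sided, Benjamini-Hochberg adjustment over 16737 genes, threshold 0.05. Standard errors were derived from the F statistic. The script was tested on simulated counts. DESeq2 1.42.0, limma 3.58.1 (voom), other scalings and filters, a replicate block and leaving out each library were alternatives. Deviations from group means correlated at 0.18, 0.21 and 0.30 between same-numbered libraries and at -0.04 or below between others. Centring on group means ties these values together, so the negative ones are no separate support for a pairing. Replicate numbers were taken to pair the libraries only in the block fits and in the ratios of same-numbered libraries, from the data and not from the labels. The main fit left them out.

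Members and lists were chosen with earlier results of these data known. Named genes were the members, the neighbours, of the other MATE genes the 5 with the smallest p and the closest by sequence, of each list up to 4 by p, and the 5 most like the cluster sum. ALF5, FRD3, TT12, BCD1, AT1G51340, AT5G52050, AT4G22790, GSTU4 and CYP81D11 fell outside this rule and were chosen after their values were seen. Protein identity counts identical residues in global alignments of translated coding sequences, end gaps left out.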

Additional observations from a re-analysis of the deposited data

How the results depend on the processing

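The log2 fold changes of the 3 tested members and of the cluster sum kept their positive sign in every alternative tried. For DTX1, AT2G04100 and the sum the groups did not overlap in CPM, so leaving out a library could not reverse the sign. With 1 library left out the log2 fold changes ranged from 3.23 to 4.35 for DTX1, 1.09 to 1.81 for AT2G04100, 0.61 to 1.76 for AT2G04090 and 1.60 to 2.03 for the sum. In those fits 0 members were called higher. Members called higher numbered 2 without the low-count filter, with DESeq2 and with the replicate block. In fits added after the data were seen, they numbered 1 and 2 with the block but without pair 1 or pair 2. Calls over all genes were not counted in those added fits. Without the filter edgeR adjusted p was 0.00154 for DTX1 and 0.0414 for AT2G04100, and with DESeq2 3.64e-05 and 0.0202. Over the alternatives the adjusted p of DTX1 reached 0.330 at most, without RGF1 replicate 3. Other MATE genes called higher numbered 1 without the filter, 3 with DESeq2, 1 with the replicate block and 0 to 1 with 1 library left out, the 1 being without Mock replicate 2. Over all genes, 78 were called higher and 5 lower, against 176 and 46 without the filter, 234 and 81 with DESeq2, 208 and 94 with the replicate block, and 39 to 113 and 1 to 5 with 1 library left out. RLE scaling, total counts, voom and a mean count of at least 10 changed no call of a member. The causes were not tested. The block changed no call of AT2G04090. Depth limits AT2G04050, AT2G04070 and AT2G04080, which lie near or under the floor of 3 counts per library.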
